A study of Mus musculus with 6 samples.

Results

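Germline stem (GS) cells are spermatogonia grown in culture. In libraries from such cultures, a set with several genes best known from macrophages and blood vessels was read at low levels. The cell source of these reads was not tested. The set held 9 of the 32285 genes in the count table: Mrc1, Scin, Cd300lb, Ptprc, Kdr, Cd93, Hspb7, Krt26 and Dnah2os. They had been picked on these same libraries because their values were low in Ground-3 and Space-1 and high in Ground-1 and Space-3. That order is therefore a description and carries no test below.

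The 6 libraries came from GS cells with the genotype DBA/Tg14(act-EGFP-OsbY01) in the DBA/2 strain, which all groups shared. The EGFP transgene marks the donor cells, and the lines had been derived from testes of mice aged 2 to 3 days. The 3 libraries titled Space came from cells that spent 6 months frozen aboard the International Space Station, and the 3 titled Ground from cells frozen on Earth for as long. Cells were grown on mouse embryonic fibroblast feeders with GDNF and FGF2, and RNA was taken on the day after thawing without a passage. The treatment label of each library names the opposite of its title, so every Space and Ground value below follows the title. The paper names 3 lines for this sequencing but does not say which library came from which. No label says which libraries share a line or a culture. Libraries held 19015985 to 24110916 counts, and mitochondrial transcripts took 2.51% to 11.5% of them, most in Ground-2 and Space-2.

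In textbook terms, macrophages take up particles and glycoproteins through receptors such as the mannose receptor, and CD45 marks nearly all nucleated blood cells. Endothelial cells line vessels and respond to VEGF through the receptor tyrosine kinase encoded by Kdr. Neither is the intended population of a GS cell culture, in which spermatogonia depend on GDNF signalling through Ret and Gfra1 and on FGF2. GDNF raises transcription factor genes such as Bcl6b and Etv5 in these cells.

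The 9 members moved together by choice, and upstream sequence is shown for 4 of them so that a reader can compare their starts directly. Of the 9 members, 7 had an entry in the RefSeq promoter table (GRCm38.p6). Cd93 and Dnah2os were without one. The bases run 5′ to 3′ on the strand of the gene and stop where the annotated gene begins. Capitals mark matches on either strand to any of 7 searched motifs, which were the ETS core AGGAAG, the Egr type motif GCGTGGG, the AP-1 motif TGANTCA, the GC box GGGCGG, the CCAAT box, the TATA box motif TATAAA and the E box CACGTG.
Scin, chr12:40134229-40134478, minus strand: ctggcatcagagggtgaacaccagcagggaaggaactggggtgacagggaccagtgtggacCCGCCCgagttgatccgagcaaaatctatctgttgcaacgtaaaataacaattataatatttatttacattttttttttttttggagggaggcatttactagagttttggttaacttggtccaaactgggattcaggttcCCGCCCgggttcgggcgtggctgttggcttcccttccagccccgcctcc
Kdr, chr5:75978459-75978705, minus strand: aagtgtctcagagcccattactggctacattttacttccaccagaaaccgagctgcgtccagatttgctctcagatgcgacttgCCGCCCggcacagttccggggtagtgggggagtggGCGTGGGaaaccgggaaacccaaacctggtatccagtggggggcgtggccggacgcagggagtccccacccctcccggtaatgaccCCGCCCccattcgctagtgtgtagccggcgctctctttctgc
Mrc1, chr2:14229164-14229391, plus strand: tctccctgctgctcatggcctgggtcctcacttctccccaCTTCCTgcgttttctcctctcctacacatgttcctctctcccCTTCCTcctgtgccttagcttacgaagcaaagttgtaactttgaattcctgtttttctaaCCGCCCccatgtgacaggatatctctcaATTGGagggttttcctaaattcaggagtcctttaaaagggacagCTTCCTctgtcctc
Cd300lb, chr11:114934387-114934621, minus strand: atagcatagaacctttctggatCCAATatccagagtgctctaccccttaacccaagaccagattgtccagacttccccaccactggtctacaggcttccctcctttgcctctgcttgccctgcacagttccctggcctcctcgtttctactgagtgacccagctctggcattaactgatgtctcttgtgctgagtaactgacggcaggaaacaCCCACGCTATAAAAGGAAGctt

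The 4 upstream regions did not share a single arrangement of these letters. Mrc1 held 5 matches, of which 3 were AGGAAG. In Cd300lb, matches to the Egr type motif, the TATA box motif and the ETS core lay next to each other without overlap just before the annotated start. Scin held 2 matches, both GGGCGG. Kdr held 3 matches, to the GC box and the Egr type motif. Hspb7, Krt26 and Ptprc also had an entry but are not printed. Most of the Ptprc window lay inside the annotated gene. The upstream bases of Hspb7 held 0 matches to the 7 motifs, and those of Krt26 held 2, both TATAAA. The window counts use the 250 upstream bases of each entry without a cut at the annotated gene. Ptprc is among the windows counted for AGGAAG and for the TATA box motif. AGGAAG was found in 3 of 7 member windows and in 29.2% of 27025 windows of that length in the table. The GC box was found in 3 of 7 against 32.9%, the TATA box motif in 3 of 7 against 13%, the CCAAT box in 2 of 7 against 34.5%, and the Egr type motif in 2 of 7 against 4.2%. The AP-1 motif and the E box matched 0 of 7, against 6.87% and 6.05%. A match describes letters only and says nothing about binding.

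Values are CPM, the counts of a gene per 1000000 counts of its library, scaled between libraries by TMM (trimmed mean of M-values), with 1 sample per library. Mrc1 encodes the macrophage mannose receptor (CD206), an endocytic lectin (ENSMUSG00000026712, chr2:14229392-14332057, GRCm38). It had 5.27 CPM in Ground-1 and 5.79 in Space-3, 1.06 in Ground-2 and 1.44 in Space-2, and 0.394 in Ground-3 and 0.247 in Space-1. The values fell into 3 steps, and the choice of the ends left each step with 1 Ground and 1 Space library. The summed counts of Ground-1 and Space-3 were 17.4 times those of Ground-3 and Space-1 after scaling (95% exact counting interval 10.4 to 31.5). This and the other intervals cover counting error only.

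Cd300lb encodes an immunoglobulin-like receptor of myeloid cells that signals through the adaptor encoded by Tyrobp (ENSMUSG00000063193, chr11:114922781-114934386). It had 1.65 CPM in Ground-1, 1.44 in Space-3, 0.958 in Ground-2, 1.17 in Space-2, 0.263 in Ground-3 and 0.0411 in Space-1. Its middle libraries lay closer to the top than those of any other member, with a ratio of the high to the middle pair of 1.45 (0.974 to 2.18). Tyrobp itself had 0 counts in 4 libraries, 1 in Space-2 and 2 in Space-3.

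Ptprc encodes CD45, the receptor tyrosine phosphatase of blood cells (ENSMUSG00000026395, chr1:138062861-138175708). It had 0.535 CPM in Ground-1, 1.04 in Space-3, 0.479 in Ground-2, 0.266 in Space-2, 0.0438 in Ground-3 and 0.0411 in Space-1. These values rest on 55 counts in all, and the last pair held 1 count each. The ratio of the high to the low pair was 18.6 with an interval of 4.82 to 159, so its size is poorly known. In CPM per kilobase of exon, Ptprc had the lowest mean of the set, at 0.0219.

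Kdr (ENSMUSG00000062960, chr5:75932827-75978458) encodes VEGF receptor 2. Cd93 (ENSMUSG00000027435, chr2:148436640-148443563) encodes a lectin-like membrane protein of endothelial and myeloid cells. Kdr had 9.13 CPM in Ground-1, 7.55 in Space-3, 2.93 in Ground-2, 3.57 in Space-2, 1.14 in Ground-3 and 1.07 in Space-1. Cd93 had 13 CPM in Ground-1, 14.2 in Space-3, 4.63 in both Ground-2 and Space-2, 1.62 in Ground-3 and 2.06 in Space-1. Both genes gave the same 3 steps, and 1 Space and 1 Ground library in each follows from the choice of the ends. The high pair stood 7.55-fold (5.65 to 10.3) above the low pair for Kdr and 7.38-fold (5.9 to 9.34) for Cd93, the 2 smallest ratios of the set.

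Scin encodes scinderin, a calcium-dependent protein that severs and caps actin filaments (ENSMUSG00000002565, chr12:40059769-40134228). It had 15.8 CPM in Ground-1, 15.7 in Space-3, 4.31 in Ground-2, 2.45 in Space-2, 1.49 in Ground-3 and 1.07 in Space-1. Per kilobase it had the highest mean level of the 9 genes, at 2.27 CPM per kilobase. The ratio was 4.67 (3.86 to 5.67) from the high to the middle pair and 2.65 (1.94 to 3.67) from the middle to the low pair.

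Neither Scin nor the 3 members left, Hspb7, Krt26 and Dnah2os, is described here as a macrophage or endothelial gene. Hspb7 (ENSMUSG00000006221, chr4:141420779-141425311), a small heat shock protein gene of heart and skeletal muscle, had 4.65 CPM in Ground-1, 4.08 in Space-3, 1.38 in Ground-2, 2.18 in Space-2, 0.394 in Ground-3 and 0.494 in Space-1. Krt26 (ENSMUSG00000075570, chr11:99328550-99337966), a keratin gene of the inner root sheath of hair, had 1.07 CPM in Ground-1, 0.559 in Space-3, 0.479 in Ground-2 and 0.319 in Space-2. It had 2 counts in Ground-3 and 0 in Space-1, where a count of 0 allows up to 0.123 CPM. Its ratio of 19.1 had an interval of 4.95 to 163, the widest of the set.

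Dnah2os is a noncoding antisense gene (ENSMUSG00000086591, chr11:69448548-69453676) inside Dnah2, a dynein heavy chain gene on the opposite strand. It had 2.39 CPM in Ground-1, 2.56 in Space-3, 1.01 in Ground-2, 1.17 in Space-2, 0.307 in Ground-3 and 0.0411 in Space-1. Exons of both genes share 312 bases of its 859, and the strand setting of the counting was not given, so its values are uncertain. Dnah2 had 17.9 to 20.8 CPM across all 6 libraries and a log2 difference of 0.15 between the high and low pairs, against 3.49 for Dnah2os. None of the other 8 members shared exonic bases with another annotated gene.

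**Figure D1:**
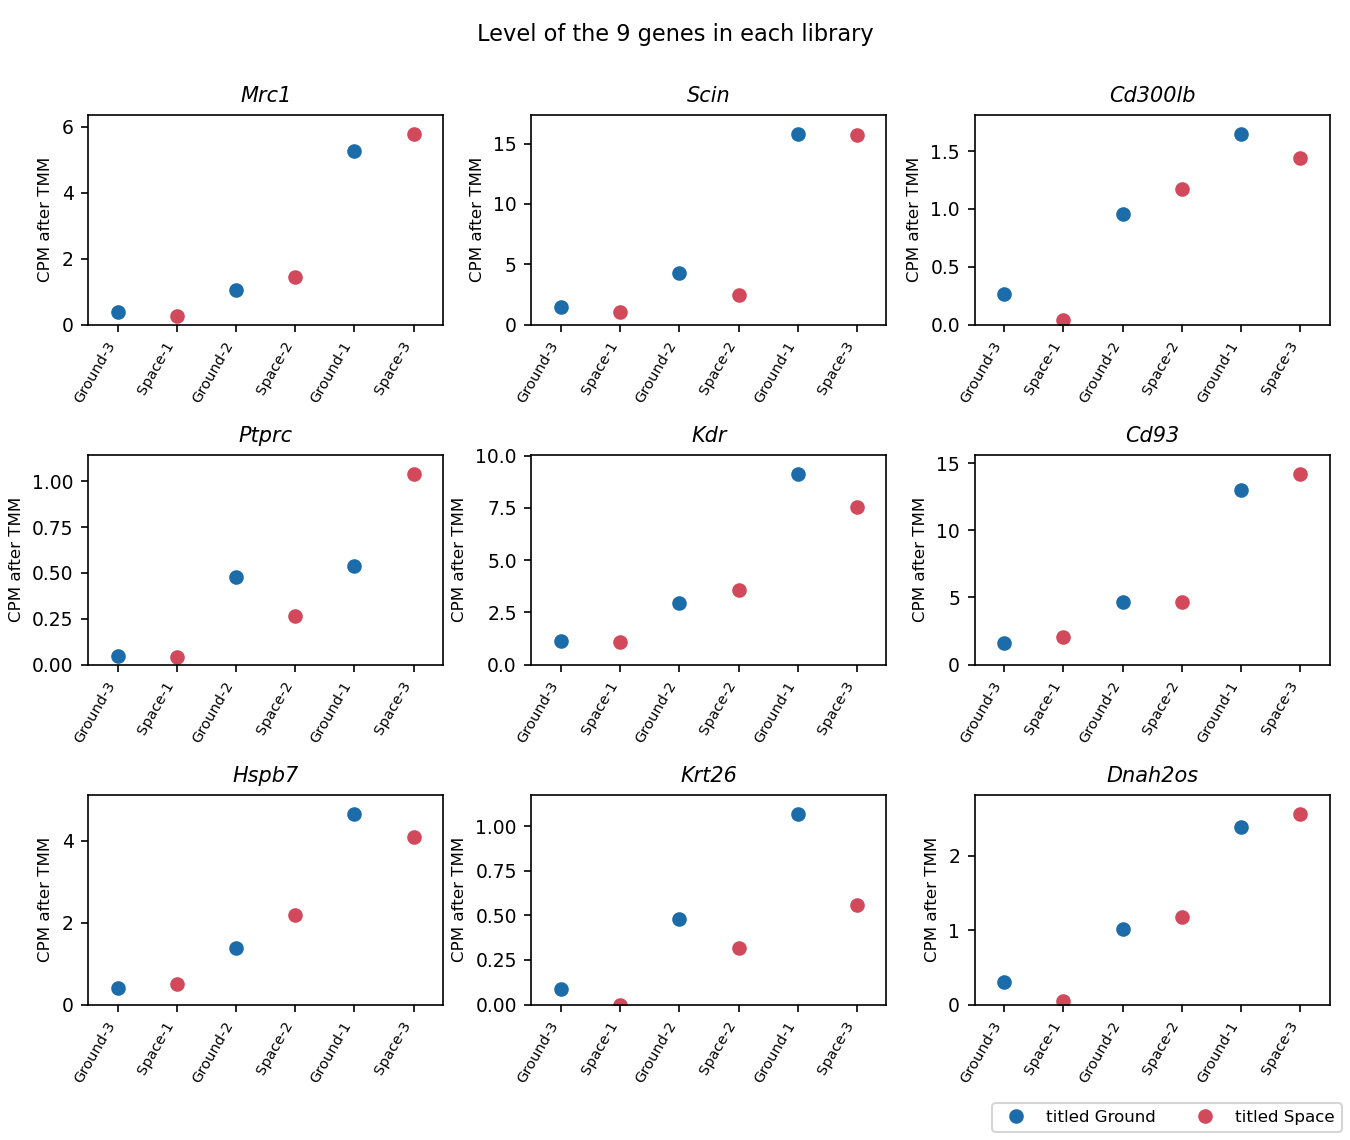
CPM after TMM of each member (vertical axis, linear, from 0) in each of the 6 libraries (horizontal axis), with 1 point per library, blue for libraries titled Ground and red for those titled Space. In all 9 genes Ground-3 and Space-1 were lowest and Ground-1 and Space-3 highest, the order the genes were chosen for.

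All 9 members kept both middle libraries between the high and the low pair, an order found in 10.1% of the 15104 genes tested. All 9 also stood at least 2-fold higher in the high than in the low pair, where 4.75% of genes tested did and 1.03% were at least 2-fold lower. Since the members were chosen for this contrast, nothing is read from these counts. Summed over the set, the level was 53.5 CPM in Ground-1 and 53 in Space-3, 17.2 in both Ground-2 and Space-2, and 5.74 in Ground-3 and 5.06 in Space-1. The log2 differences between the ends lay between 2.67 and 3.8 with a prior count of 2, against a median of 0.006 over all genes tested. Their order among the members depends on that prior count, since several members had 0 to 2 counts in a library of the low pair. The 9 genes lie on 6 chromosomes, with Mrc1 and Cd93 on chromosome 2 and Cd300lb, Krt26 and Dnah2os on chromosome 11, each far from the others.

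The study compared GS cells stored in space with those stored on Earth. None of the members passed the test of a difference between Space and Ground (edgeR's quasi-likelihood test). Mrc1 averaged 2.24 ± 2.64 CPM over the Ground libraries and 2.49 ± 2.92 CPM over the Space libraries (SD, n = 3). Its log2 fold change was 0.15, with an SE of 1.08 and an adjusted p of 0.9999 by edgeR. Kdr had 4.4 ± 4.2 and 4.06 ± 3.27 CPM, and Scin 7.2 ± 7.58 and 6.42 ± 8.1 (SD, n = 3). The log2 fold changes of the 9 genes ran from -0.9 (Krt26, SE 1.01) to 0.39 (Ptprc, SE 1), with standard errors of 0.81 to 1.08 and an edgeR adjusted p of 0.9999 for each. Groups overlapped in every member. Of all 15104 genes tested 0 (0%) passed, although 92 had an unadjusted p under 0.05. DESeq2 and limma-voom likewise called 0 genes, and unadjusted p values lay under 0.05 for 45 and 88 genes. The choice put 1 Space and 1 Ground library at each end, which favours like group means and wide errors, so these values say little about storage.

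Each step of the order held 1 library of each title, and these neighbours were compared by counting error alone. The ratios of Space-3 to Ground-1 ran from 0.523 for Krt26 (0.252 to 1.04) to 1.94 for Ptprc (0.963 to 4.12), and that of Scin was 0.997 (0.864 to 1.15). Between Space-2 and Ground-2 the ratios ran from 0.556 for Ptprc to 1.58 for Hspb7. Between Space-1 and Ground-3 the 95% counting interval held 1 for all 9 genes, but Cd300lb and Dnah2os had 1 count each in Space-1 against 6 and 7 in Ground-3. Of the 27 intervals, 1 left out a ratio of 1, that of Scin in Space-2 over Ground-2 (0.568, 0.387 to 0.826). These intervals hold no variation between cultures, and this grouping of libraries comes from the values and not from a label. Over all genes tested the median chi-square of a pair of libraries, relative to sampling noise, was 1.53 to 2.17 in the 3 neighbouring pairs and 4.3 to 10.7 in the other 12, so no library repeated another within sampling noise.

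**Figure D2:**
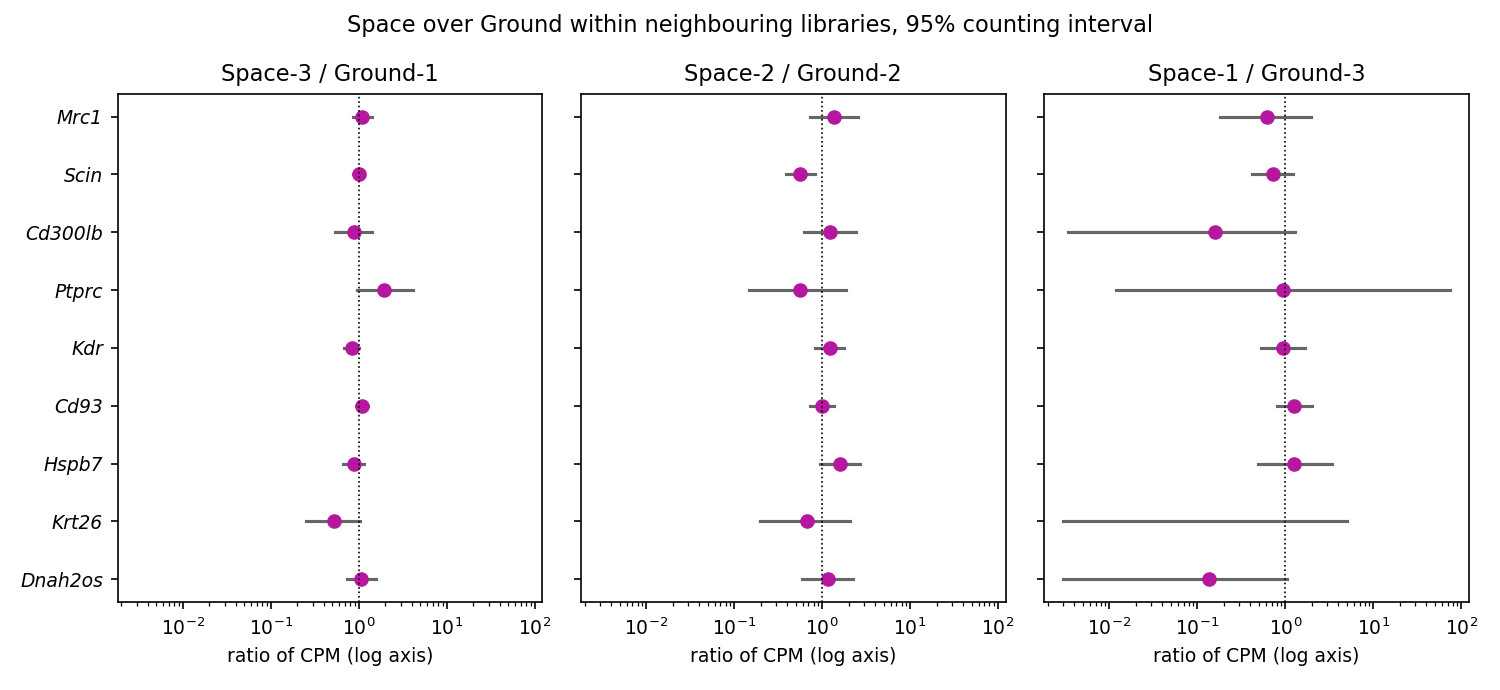
Ratio of CPM of Space over Ground (horizontal log axis, no unit) for each member in the 3 neighbouring library pairs, with points for the ratio and bars for the exact 95% counting interval. All bars but that of Scin in Space-2 over Ground-2 cross the dotted line at 1. Krt26 has no point in Space-1 over Ground-3 because Space-1 held 0 counts, and its bar and that of Dnah2os are cut at the left edge.

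The names of the genes were then set against markers of the cell types they recall. Germ cell markers were well detected: 17 of 17 passed the filter on low counts, with a summed level of 4300 to 4390 CPM. Passing the filter does not name the cells, as 17 of 17 feeder fibroblast markers passed too, at a summed 840 to 1070 CPM. Most macrophage markers were nearly absent, so the members are called by their symbols here and not by that cell type. Of 22 macrophage markers in the table, 5 had 0 counts in all 6 libraries (C1qa, C1qb, C1qc, Marco and Timd4) and 14 had 10 or fewer counts in total. Csf1r, the receptor that macrophages need to survive, had 2 counts in Ground-1, 2 in Space-3 and 0 elsewhere. Adgre1 (F4/80) had 1 count in all, in Space-1, and Lyz2 had 3 counts in all, none of them in Ground-1 or Space-3. Other low markers were mixed. Cx3cr1 had 7 counts in Ground-1 and 10 in Space-3 against 2 in both Ground-3 and Space-1. Aif1 had 9 and 11 against 3 and 4 in these libraries, and Itgam 2 and 7 against 8 and 4. In Ground-2 and Space-2, Cx3cr1 had 10 and 4 counts and Aif1 8 and 10.

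The summed macrophage marker level was 20.4 to 32.6 CPM in Ground and 25.8 to 31.2 in Space, with 32.6 and 31.2 CPM in the high pair and 20.4 and 25.8 in the low pair. Cd68, a lysosomal protein gene, and Mertk, a receptor for dying cells, made up 88.1% to 92.9% of it. Cd68 had 22 CPM in Ground-1 and 20.7 in Space-3, against 14 in Ground-3 and 17.2 in Space-1. Mertk had 6.75 CPM in both Ground-1 and Space-3, against 4.95 and 6.38. In Ground-2 and Space-2, Cd68 had 16.1 and 18.2 CPM and Mertk 7.18 and 8.36, so neither kept the order of the members. Only 4 markers of the list passed the filter, and 1 of them, Fcer1g, stood at least 2-fold higher in the high pair, with 1.77 and 0.919 CPM against 0.482 and 0.494. The share of macrophage RNA in the levels of the members was not tested. In bulk RNA, fewer cells of a type and less RNA per cell cannot be told apart.

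Genes of blood cells in general were low as well. Of 16 on the list 8 passed the filter, with a median log2 difference between the high and low pairs of 0.54. By at least 2-fold, 1 was higher in the high pair and 1 lower, against 4.75% and 1.03% of all genes tested. The higher one, Was, an actin regulator of blood cells, had 2.92 CPM in Ground-1 and 3.04 in Space-3 against 1.36 in Ground-3 and 1.48 in Space-1. The lower one was Gata1, an erythroid factor gene at 0 to 0.701 CPM. Coro1a had the highest CPM on the list, with 11.9 and 11.6 CPM against 8.1 and 7.61. Its values in Ground-2 and Space-2, 12.4 and 12.3 CPM, exceeded those of the high pair. Cd48 had 0 counts. Of the Src family kinases that CD45 acts on, and their inhibitor Csk, 8 of 10 passed the filter, 0 differed 2-fold between the ends, and the median difference was 0.12. Csk itself had a log2 difference of 0.38 and Fyn 0.5.

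Endothelial markers did not move as one. Of 18 listed, 12 passed the filter, and of these 3 were at least 2-fold higher in the high pair and 0 lower. Over all genes tested, 4.75% were as much higher and 1.03% lower. The summed level was 175 to 182 CPM in every library. Erg, an ETS factor, had the highest CPM and ran the other way, with 55.6 CPM in Ground-1 and 59.1 in Space-3 against 84.3 in Ground-3 and 80.2 in Space-1. As Erg is a large part of the sum, the level sum does not show that the other markers were level. The 12 had a median log2 difference of 0.26, from -0.52 for Erg to 1.97. Pecam1 (CD31) was level, with 7.69 and 8.07 CPM in the high pair and 8.54 and 8.85 in the low pair. Sox17, Robo4 and Emcn, which mark endothelium, had at most 3 counts in total.

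The 3 endothelial markers past 2-fold were named after their values were seen. Cdh5, the cadherin of endothelial junctions, had 3.87 CPM in Ground-1, 3.4 in Space-3, 2.71 in Ground-2, 2.02 in Space-2, 1.18 in Ground-3 and 0.617 in Space-1. Eng (endoglin), a TGF-beta co-receptor, had 6.66, 6.83, 3.83, 3.35, 2.28 and 2.22 CPM in the same order of libraries. Nos3, endothelial nitric oxide synthase, had 1.81 CPM in Ground-1 and 0.759 in Space-3, so its middle library Space-2, at 1.12, exceeded one of the high pair. Cdh5 and Eng kept the order of the members and Nos3 did not. Egfl7 kept it too, at a log2 difference of 0.21, so 3 of the 12 tested did, against 10.1% of all genes tested.

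**Figure D3:**
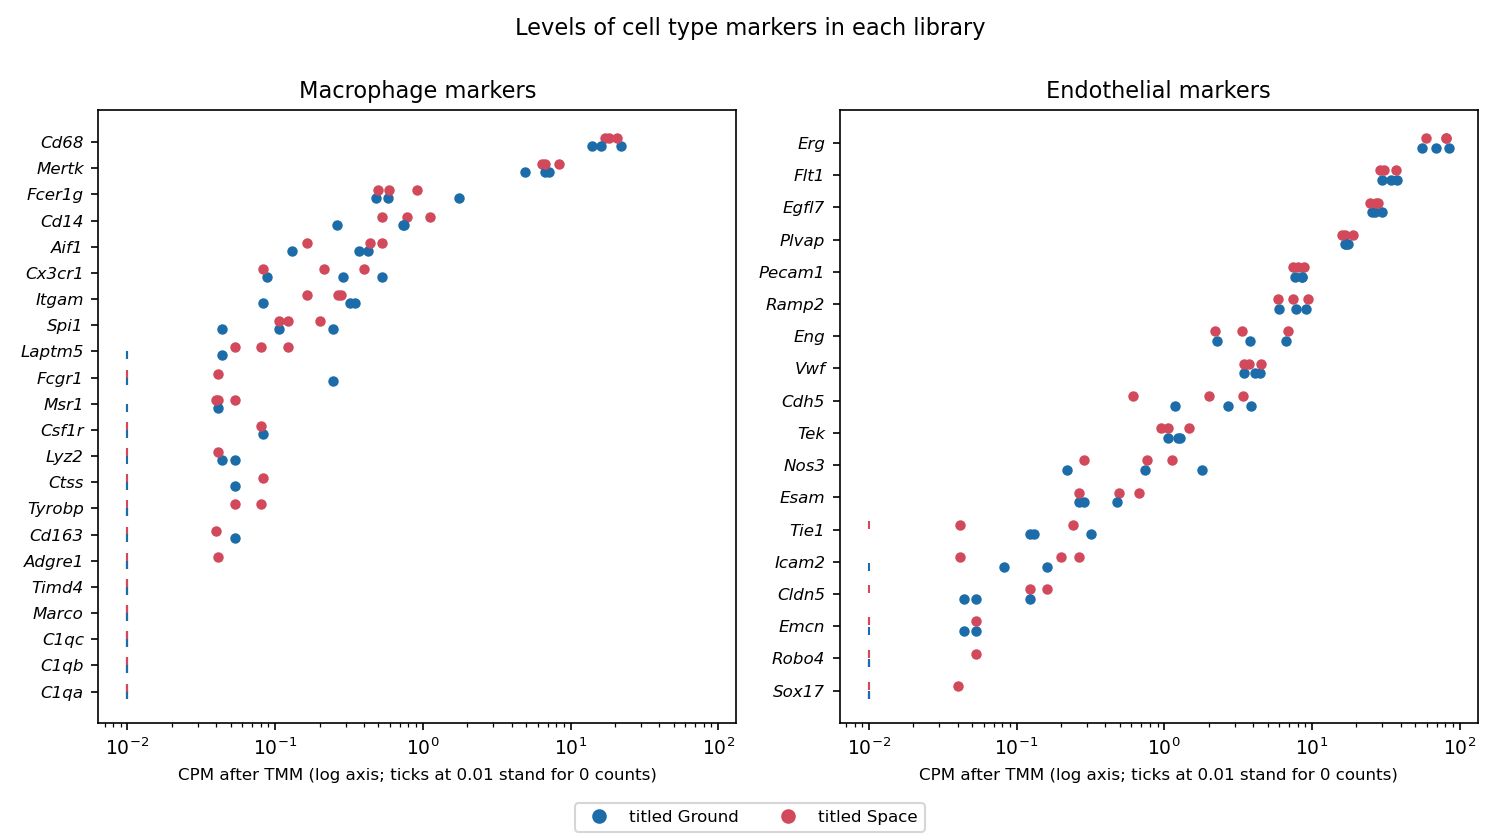
CPM after TMM (horizontal log axis) of each macrophage marker (left) and endothelial marker (right) in the 6 libraries, blue for Ground and red for Space, with ticks at the left edge for 0 counts. Cd68 and Mertk stand apart from the other macrophage markers, 5 of which show ticks only, while several endothelial markers exceed 10 CPM in all libraries.

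The VEGF pathway list held 9 genes besides Kdr, all past the filter, with a median log2 difference of 0.29. Of these, 2 were at least 2-fold higher in the high pair, against 4.75% of all genes tested, and 0 lower. Nrp2, a co-receptor for VEGF, had 9.21 CPM in Ground-1, 8.59 in Space-3, 5.11 in Ground-2, 4.74 in Space-2, 3.02 in Ground-3 and 1.81 in Space-1, the order of Kdr. Flt1, VEGF receptor 1, which is also on the endothelial list, had a log2 difference of 0.29 against 2.81 for Kdr, with 37.5 and 36.8 CPM in the high pair and 29.8 and 30.8 in the low pair. The ligand gene Vegfb ran opposite, with 15.2 and 13.3 against 20.6 and 23.2 CPM, and Vegfa had 12.3 and 11.9 against 16.1 and 12.8. The other gene past 2-fold, Vegfc, had 0.0823 to 0.585 CPM in the 6 libraries. None of these 9 passed the test between Space and Ground (edgeR adjusted p = 0.9999 for each).

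Close relatives of the other members were read family by family. In the mannose receptor family 0 of 3 relatives moved 2-fold, and Mrc2, the fibroblast member of that family, had a log2 difference of -0.02 against 3.8 for Mrc1. In the CD300 family 2 of 7 passed the filter, and Cd300a was 2-fold lower in the high pair, with 0.946 CPM in Ground-1 and 0.919 in Space-3 against 2.41 in Ground-3 and 1.69 in Space-1. In the gelsolin family Capg, an actin capping protein gene, had 48.2, 48.6, 36.9, 37, 23.5 and 20.8 CPM in Ground-1, Space-3, Ground-2, Space-2, Ground-3 and Space-1, the order of Scin. It and Avil were the 2 of 6 at least 2-fold higher in that family, against 4.75% of all genes tested.

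For Cd93, all 3 tested relatives or ligands were higher in the high pair, with a median log2 difference of 0.89, and 0 reached 2-fold with a prior count of 2. They were Mmrn2 (0.97), a ligand of CD93, thrombomodulin (Thbd, 0.89) and Cd248 (0.59). Thbd had 3.99 and 3.88 CPM in the high pair against 2.45 and 1.77 in the low pair. Among small heat shock genes 6 of 9 passed the filter, 0 were 2-fold higher in the high pair as Hspb7 was and 1 was 2-fold lower, and the median difference was -0.41. Of the inner root sheath keratins, Krt27 was the 1 gene of 6 in the table to pass, with 1.6 CPM in Ground-1 and 1.64 in Space-3 against 0.569 in Ground-3 and 0.37 in Space-1. No gene of these lists passed the edgeR threshold between Space and Ground.

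Genes listed as GDNF-responsive ran largely with the members. The medium held both GDNF and FGF2, and a response to either was not tested. Of 14 on the list, 8 were at least 2-fold higher in the high pair, against 4.75% of all genes tested, and 0 lower. The median log2 difference was 1.14, and 10 of 14 kept both middle libraries between the ends (10.1% of all genes tested did). Bcl6b, a transcriptional repressor gene of stem cell self-renewal, had 363 CPM in Ground-1, 371 in Space-3, 222 in Ground-2, 217 in Space-2, 59 in Ground-3 and 57.5 in Space-1. Etv5, an ETS factor gene, had 259 and 262 CPM in the high pair, 202 and 195 in the middle and 93 and 99 in the low pair. Dusp6 and Spry4, which damp ERK signalling, had log2 differences of 1.6 and 1.69. Ccnd2, a cyclin gene with the highest CPM of the list, had 736 and 752 CPM against 447 and 444. Egr4 and Nefm ran the other way, with differences of -0.76 and -0.5. As the list was drawn up with this order of libraries known, its counts lend no independent support.

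The feeder layer was set beside the members as well. All 17 fibroblast markers passed the filter, with a summed level of 1000 to 1050 CPM over the Ground libraries and of 840 (Space-1), 955 (Space-3) and 1070 CPM (Space-2) over the Space libraries. The median log2 difference between the high and low pairs was 0.42, with Postn (1.5) and Acta2 (1.32) past 2-fold. Neither kept the order of the members. Space-3 had 2.36 CPM of Postn and 6.07 of Acta2, below the 3.67 and 6.17 of Ground-2. Of the 17 markers, 2 kept that order, against 10.1% of all genes tested. The part of feeder RNA in the levels of the members was not tested.

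**Figure D4:**
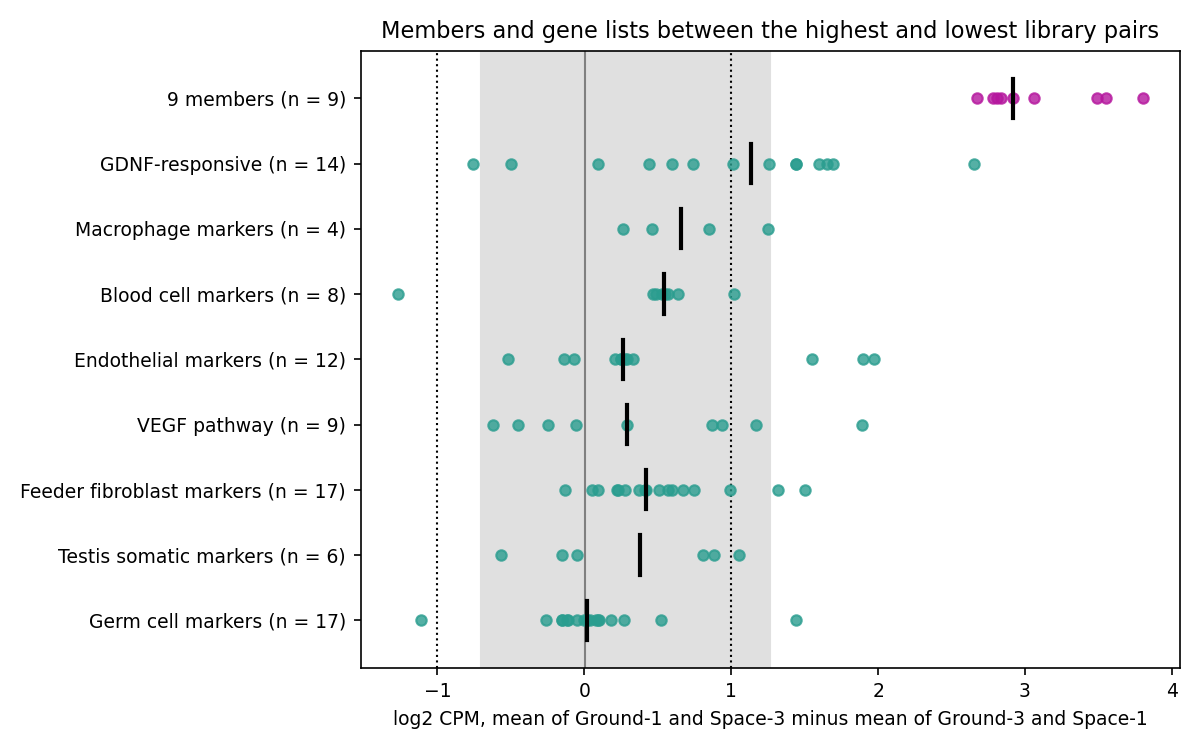
Log2 CPM in the high pair minus the low pair (horizontal axis) for the 9 members and for the tested genes of 8 lists (rows), with 1 point per gene and a black bar at each median. The grey band holds the middle 95% of all 15104 genes tested (-0.7 to 1.27) and dotted lines mark 2-fold. The members lie between 2.67 and 3.8, and Bcl6b, at 2.65, is the list gene nearest to them.

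Outside the 9 members, the genes with the most similar profile were found by Pearson's r of log2 CPM with the mean profile of the 9 members over 6 libraries. Among 118 genes with a mean of at least 1 CPM and a log2 range of at least 2, 61 had an r of at least 0.9 and 8 of -0.9 or less. The 10 most alike had an r of 0.988 or more. They were Tbxa2r, Exoc3l, Kcnj15, Shc3, Gipc3, Epha2, Setbp1, Itpkb, Nrp2, which is also on the VEGF pathway list, and Arhgap31. The points share libraries and depth, and the members had been picked for this profile, so r is given as a description.

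Tbxa2r, the thromboxane receptor gene, came first with r = 0.999 and had 4.2 CPM in Ground-1, 4.24 in Space-3, 2.18 in Ground-2, 2.08 in Space-2, 0.876 in Ground-3 and 0.617 in Space-1. Epha2, an ephrin receptor tyrosine kinase gene, had 492 CPM in Ground-1, 486 in Space-3, 294 in Ground-2, 296 in Space-2, 121 in Ground-3 and 122 in Space-1. Kcnj15, a potassium channel gene, had 13 CPM in Ground-1 and Space-3 against 1.97 in Ground-3 and 1.73 in Space-1. Itpkb, an inositol phosphate kinase gene, had 22.5 and 22.8 against 3.24 and 3.42 CPM in the same libraries. None of the 10 passed the test between Space and Ground (edgeR adjusted p = 0.9999 for each).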

How the data were processed

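Raw counts per gene of 6 libraries, 3 Space and 3 Ground by title, were used as the authors deposited them, in 1 table. Per the labels and the published methods, adaptors were removed by cutadapt before alignment by HISAT2 2.2.1 to mm10 under GENCODE M21. The submitters' processing notes also name HTSeq 2.0.2, without a role. The strand setting of the counting and its handling of shared reads are not given in the sources used here. Labels and methods name different kits, sequencers, read layouts and cutadapt versions. No label says that replicates came from separate cultures, so p-values measure the spread between these libraries.

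Genes were filtered with filterByExpr, which left 15104, and scaled by TMM on total counts. All 9 members passed, some through the libraries where they were high: Ptprc and Krt26 passed on Ground-1, Ground-2 and Space-3. Space and Ground were compared with edgeR 4.0.16 (quasi-likelihood F test, 2-sided, Benjamini-Hochberg over all genes, threshold 0.05) in R 4.3.3. The SE is the log2 fold change divided by the square root of F. Log2 CPM used a prior count of 2. Ratios of summed counts have exact conditional binomial 95% intervals, and the floor of a count of 0 is 3 counts. Positions, exon lengths and overlaps came from GENCODE M21 (GRCm38).

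The members, the gene lists and the named genes were chosen with earlier results of these data known. Genes named were the members, up to 4 genes of a list with the highest mean CPM, and the 10 genes closest in profile with a mean of at least 1 CPM and a log2 range of at least 2. Any other gene, such as a marker at or near 0 or one past 2-fold, was named after its values were seen. Vegfd was matched through an older symbol, and Clec7a and Krt74 were not used here. The procedure was tested on simulated data. Alternatives were RLE scaling, total counts, no filter, DESeq2 1.42.0, limma-voom (limma 3.58.1), a replicate block, another prior count and leaving out each library.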

Additional observations from a re-analysis of the deposited data

How the results depend on the processing

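The counts of 0 genes and 0 members past the threshold between Space and Ground held under RLE scaling, total counts, no filter, DESeq2, limma-voom, the replicate block and each fit without 1 library, with 45 (DESeq2) to 192 (no filter) genes at an unadjusted p under 0.05 and adjusted p of the members of at least 0.9997 throughout. The difference between the high and low pairs was fixed by the choice of members, so nothing is read from its direction under the alternatives. The sign of the Space change of single members was not stable. It turned for Mrc1 with limma-voom (-0.061), for Dnah2os with limma-voom (-0.755) and, with the numbers in the titles as replicate block, for Kdr (0.034) and Dnah2os (-0.137). Those numbers did not pair the libraries, as deviations of same-numbered libraries correlated at -0.48, 0.28 and -0.6 over 1000 variable genes, and under the replicate block 63 genes had an unadjusted p under 0.05.

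Leaving out 1 library turned the sign in every member. The log2 fold change ran from -1.482 to 1.811 for Mrc1, -0.966 to 1.178 for Cd93, -0.73 to 1.372 for Hspb7 and -1.116 to 0.967 for Dnah2os, and all of these turned without Ground-2, Ground-3 or Space-3. It ran from -2.064 to 1.176 for Scin (turned without Ground-1, Space-1 or Space-2), -0.741 to 0.556 for Cd300lb and -0.959 to 1.02 for Kdr (both without Ground-1 or Space-1), -1.26 to 0.942 for Ptprc (without Ground-3 or Space-3) and -1.896 to 0.11 for Krt26 (without Ground-1).
With a prior count of 0.5, the log2 difference between the ends was 3.536 for Cd300lb, 3.568 for Ptprc, 4.006 for Krt26 and 4.108 for Dnah2os, against 2.924, 2.669, 2.784 and 3.492 with a prior count of 2. The smallest was then Cd93 (2.882) in place of Ptprc and the largest Dnah2os in place of Mrc1 (4.049). Low counts limit Ptprc, Krt26, Cd300lb and Dnah2os most, with 1 or 0 counts in Space-1. The cause of the sign changes with limma-voom and the block was not tested.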

Other observations

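Within the germ cell markers, 2 of 17 moved 2-fold between the libraries in which the members were high and low, Etv5 and Pou5f1. The median log2 difference of the list was 0.02. Pou5f1, the pluripotency factor Oct4, was higher where the members were low, with 157 CPM in Ground-3 and 140 in Space-1 against 67.8 in Ground-1 and 69.5 in Space-3. Its middle libraries had 75.5 CPM in Ground-2 and 74.2 in Space-2, close to the libraries where the members were highest. Dazl, with the highest CPM of the list, had 946 and 963 CPM in Ground-3 and Space-1 against 865 and 851 in Ground-1 and Space-3.

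Genes of testis somatic cells were low. Of 10 markers of testis somatic cells 6 passed the filter on low counts, and Fshr and Hsd3b1 had 0 counts in all libraries. Wt1, with the highest CPM of these markers at a mean of 18.2 CPM, had a log2 difference of -0.15, and the median of the 6 was 0.38. Of the 6 tested, 2 kept the full order of the members, the Sertoli cell genes Sox9 and Sox8, against 10.1% of all genes tested. Amh, at a mean of 0.457 CPM, ran the other way, with a log2 difference of -0.57. Sox9 had 8.97 CPM in Ground-1 and 9.59 in Space-3 against 5.65 in Ground-3 and 4.4 in Space-1, a log2 difference of 0.88. Sox8 had 5.39 CPM in Ground-1 and 6.07 in Space-3 against 2.89 in Ground-3 and 3.62 in Space-1, a difference of 0.81. Gata4, at a mean of 0.489 CPM, was the 1 gene at least 2-fold higher where the members were high, at a log2 difference of 1.05.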
